A study of Mus musculus with 8 samples.

Results

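The genes described here encode the proteins of the mitochondrial ribosome. A gene was taken as a member when its symbol in the deposited tables began with Mrpl or Mrps followed by a digit, and 5 symbols ending in -ps with or without a number, the pseudogene names, were left out. This gave 78 members of 33641 genes, 49 named for the large subunit and 29 for the small subunit. RNA was sequenced from interscapular brown adipose tissue (BAT) of 8 C57BL/6 mice aged 28 weeks. The labels give 3 wild-type (WT) libraries, A7, A8 and A12, and 5 HuR knockout (KO) libraries, A24, A25, A26, A29 and A31. According to the study's methods, knockout mice carried floxed alleles of HuR, an RNA-binding protein encoded by Elavl1, and a Cre recombinase driven by the adiponectin promoter, so that the deletion is aimed at adipocytes and other cells of the tissue keep the gene. Littermates served as controls and were either Cre-positive without a floxed allele or Cre-negative with 1 or both alleles floxed, and the labels do not say which of these a WT library came from. The legend of the study gives 5 control and 3 knockout samples, the reverse of the labels, and the labels were followed.

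Elavl1 was read first as a check of the labels. Its level, in CPM (counts scaled to a common library size by edgeR's TMM factors), was 50.6 (A7), 48.0 (A8) and 49.2 (A12). In the libraries labelled KO it was 61.9 (A24), 47.2 (A25), 43.4 (A26), 61.3 (A29) and 61.2 (A31). The groups overlapped, and the log2 fold change (KO minus WT) was 0.16 (SE 0.162, adjusted p = 0.667, edgeR's quasi-likelihood F-test, Benjamini-Hochberg). Total Elavl1 RNA was thus not lower in the libraries labelled KO, and every direction given below rests on the labels alone. The 12 brown adipocyte markers were all expressed, with Ucp1, the uncoupling protein of brown fat, at 8588 ± 3388 CPM (SD, n = 3) in WT and 7855 ± 2459 CPM (SD, n = 5) in KO.

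Library totals were 60622522 counts in A7, 51751002 in A8, 50673814 in A12, 18264754 (A24), 17558090 (A25), 67498055 (A26), 50893173 (A29) and 58727739 (A31). A24 and A25 were the shallowest. Even there, the lowest count of any member in any library was 61, in Mrpl23, and the lowest outside Mrpl23 was 413. Skeletal muscle RNA was present in part of the libraries: the 14 muscle fibre markers summed to 3660 CPM in A7, 2240 CPM in A8 and 379 CPM in A31, and to at most 3.44 CPM in the other 5 libraries. Myh4, a fast myosin heavy chain and the most abundant of these markers, reached 1050 CPM in A7, 457 CPM in A8 and 106 CPM in A31, and was at 0 or below 1 CPM elsewhere. Muscle RNA was therefore in 2 of the 3 WT libraries and in 1 of the 5 KO libraries, and its part in the results was not tested except where values without these libraries, or with the mean log2 CPM of the muscle markers as a covariate, are given.

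Mitochondria keep a small genome of their own, whose protein-coding genes all specify subunits of the oxidative phosphorylation complexes. These messages are translated inside the organelle by a dedicated ribosome, whose RNAs come from mitochondrial DNA while all of its proteins are encoded in the nucleus, made in the cytosol and imported. The small subunit reads the message, and the large subunit joins amino acids and delivers the new chain to the inner membrane. Brown adipocytes are packed with mitochondria, and the respiratory chain built in this way drives the heat production for which the tissue is known.

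All 78 members passed the filter on low counts, as did 14851 genes in all. With past the threshold meaning an adjusted p of at most 0.05 and a fold change of at least 1.5, none of the 78 members was past it by edgeR's quasi-likelihood test, against 105 of all genes tested (0.707%). That background moved with single libraries, from 10 genes without A26 to 190 without A12. At an unadjusted p below 0.05 there were 6 members, 5 higher and 1 lower in KO, against 2531 of all genes (17.0%). This count was not stable: it was 39 without A8 (21.4% of all genes), 43 with total counts as the only scaling (20.1%), 19 with voom (18.6%) and 2 without A12 (12.6%). DESeq2's Wald test and edgeR's likelihood ratio test each placed 1 member, Mrps6, past the threshold, where they placed 818 and 655 of all genes (5.51% and 4.41%). Limma's voom with quality weights placed no member and 157 genes. The log2 fold change was above 0 for 60 members and below 0 for 18, with a median of 0.21, where the median of all genes tested was 0.00. It lay between -0.5 and 0.5 for 77 of the 78, and the SE of a member's log2 fold change had a median of 0.215, so that a shift of the size of the median could not be told from 0 for most single members. In bulk tissue, fewer cells of a type and less RNA per cell cannot be told apart.

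The subunits had the same median, and a difference between them was not tested. The median log2 fold change was 0.21 over the 49 large subunit genes and 0.21 over the 29 small subunit genes, with 38 and 22 of them above 0. The mean log2 CPM of the large minus that of the small subunit genes was -0.06 (A7), -0.02 (A8) and -0.05 (A12). In the KO libraries it was 0.02 (A24), -0.00 (A25), 0.01 (A26), -0.02 (A29) and 0.00 (A31). Mean log2 CPM was higher in KO by 0.20 in the large and by 0.15 in the small subunit genes. The small subunit means include Mrps6, whose log2 fold change of -0.99 was the lowest of all members and lowers the latter value.

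**Figure D1:**
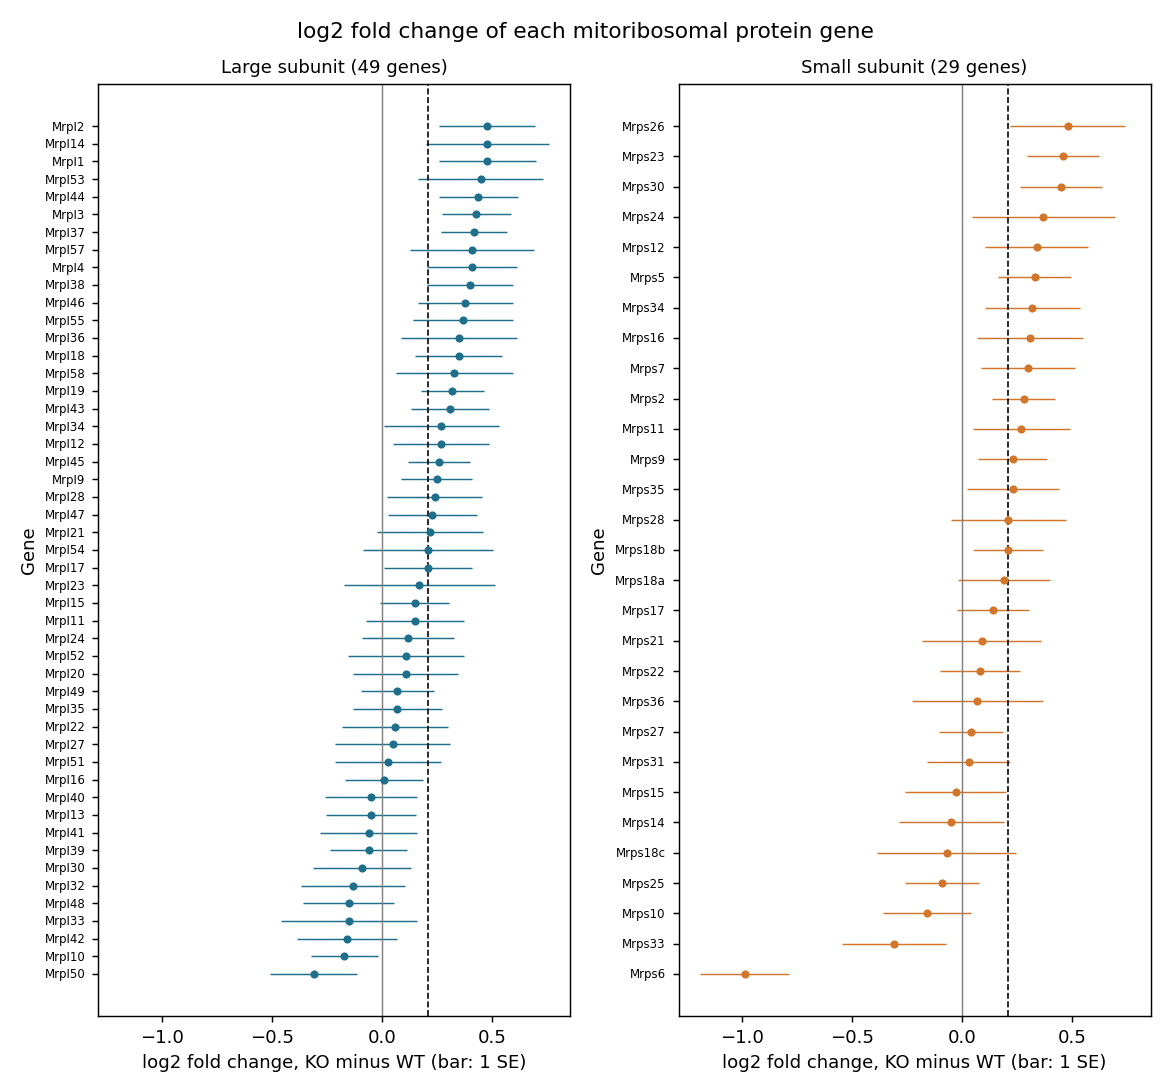
The log2 fold change of each member (KO minus WT, horizontal axis) with 1 SE, for the 49 large subunit genes and the 29 small subunit genes. The dashed lines mark the medians, 0.21 in both subunits, and Mrps6 at -0.99 lies apart from the other 77 members.

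The members' levels differed more between single libraries than between the labelled groups. Averaged over the 78 members, log2 CPM was 5.41 (A7), 6.06 (A8) and 5.40 (A12). In the KO libraries it was 6.16 (A24), 5.73 (A25), 5.60 (A26), 5.79 (A29) and 5.75 (A31). On this scale A24, labelled KO, was the highest and A8, labelled WT, the next, while A7 and A12 were the lowest. The groups overlapped, at 5.62 ± 0.38 (SD, n = 3) in WT and 5.81 ± 0.21 (SD, n = 5) in KO. The place of A8 depended on the scaling. As a share of each library's own counts, without TMM factors, the members made up 0.403% (A7), 0.472% (A8) and 0.37% (A12), and 0.627% (A24), 0.584% (A25), 0.449% (A26), 0.533% (A29) and 0.56% (A31), so that A8 stood above A26 alone among the KO libraries.

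Most members were high in A8 and A24 and low in A7 and A12. In A24 all 78 stood above their own mean over the 8 libraries and in A8 72 did, while only 2 did in A7 and 5 in A12. In A25, A26, A29 and A31 the number was 37, 16, 51 and 41. A24 was the highest library for 45 members and A8 for 29, and A12 was the lowest for 37 and A7 for 28. The 2 subunits moved alike, with median deviations of 0.33 (large) and 0.31 (small) in A8 and of 0.44 and 0.39 in A24.

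**Figure D2:**
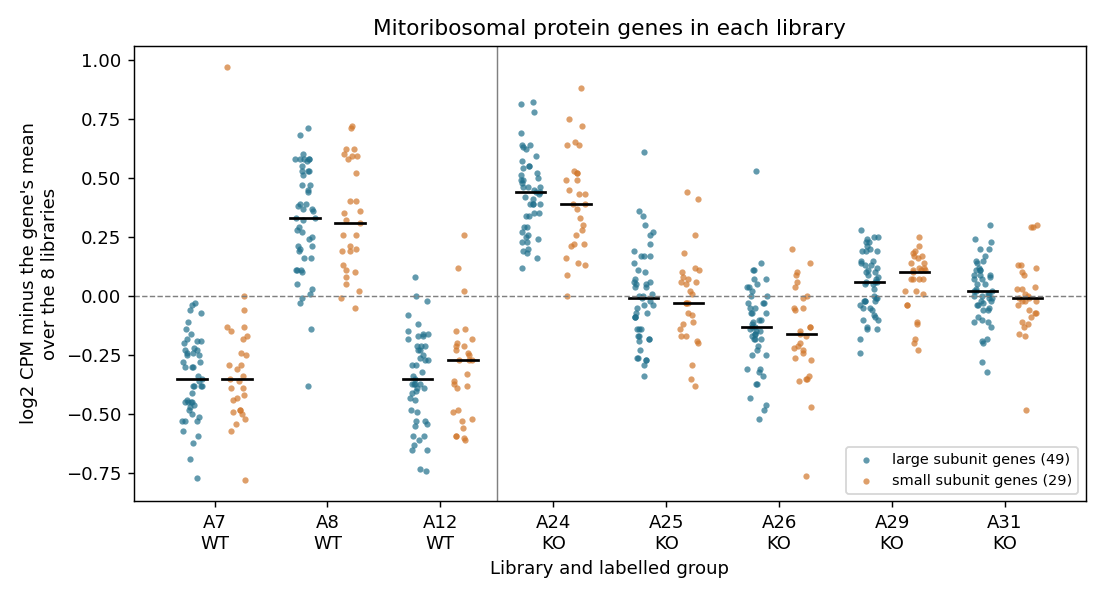
Each point is 1 member in 1 library, plotted as its log2 CPM minus its mean over the 8 libraries, with black bars at the medians of the large (49) and small (29) subunit genes. A8 and A24 stand high and A7 and A12 low for both subunits, with medians of 0.33 and 0.31 in A8 and -0.35 and -0.35 in A7.

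The group median therefore moved with single libraries. Without A8, the one WT library where the members were high, the median log2 fold change of the 78 members was 0.45 and 75 were above 0. Without A7 it was 0.05 with 45 above 0, without A12 it was 0.09 with 48, and without A24 it was 0.08 with 49. Without both A24 and A25, the shallowest libraries, it was 0.05. Without A7, A8 and A31, the libraries with muscle RNA, it was 0.40, with A12 as the only WT library left. With the muscle covariate it was 0.29, with 68 above 0 and none past the threshold. With total counts as the only scaling the median was 0.46, and that of all genes tested moved to 0.23.

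Other families of nuclear genes were also high in A8 and A24 and low in A7 and A12. The median deviation in log2 CPM of the 84 cytosolic ribosomal protein genes tested was -0.36 (A7), 0.46 (A8), -0.27 (A12), 0.41 (A24), -0.03 (A25), -0.30 (A26), 0.02 (A29) and 0.04 (A31). In the same order it was -0.42, 0.55, -0.32, 0.48, 0.05, -0.25, -0.01 and -0.08 for the 79 nuclear-encoded oxidative phosphorylation subunits tested, and -0.35, 0.32, -0.34, 0.43, -0.01, -0.13, 0.07 and 0.00 for the mitoribosomal genes. These values are on the TMM scale. Both other families were taken by symbol pattern, as the members were. The group medians of the former families were smaller, however, with a log2 fold change of 0.08 for the cytosolic ribosomal proteins (48 above 0, 36 below) and 0.07 for the oxidative phosphorylation subunits (51 above, 28 below). The deviation in a library was also related to transcript length over all 14805 genes with a length, with Spearman coefficients of 0.28 (A7), -0.33 (A8), 0.29 (A12), -0.49 (A24), 0.06 (A25), 0.32 (A26), -0.07 (A29) and -0.01 (A31). The coefficient of the log2 fold change with length was -0.14 over these genes and 0.15 over the 78 members. The part of length in the members' change was not tested. Members had a median length of 1231 bases against 2733 for all genes tested, and with each library's trend on length removed their median log2 fold change was 0.15. With the trend on GC content removed it was 0.14, the median GC content of members being 50.7% and that of all genes 50.2%.

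Among members, the groups did not overlap for 4 genes. In 3 of them every KO library was above every WT library, against 797 of all genes tested (5.37%), and in 1 every KO library was below, against 904 (6.09%). With 3 and 1 of 78, the members had no more such genes than these shares. Without A8 the count was 49 higher and 1 lower, against 13% and 13.5% of all genes, and without A25 it was 7 higher and 1 lower, against 6.45% and 6.87%. With total counts as the only scaling it was 28 higher and 1 lower, against 11.9% and 1.45%.

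The lower one was Mrps6, which encodes bS6m, a protein of the small subunit's platform. Its level was 64.6 CPM (A7), 49.6 (A8) and 39.4 (A12). In the KO libraries it was 32.9 (A24), 25.7 (A25), 19.4 (A26), 28.0 (A29) and 23.5 (A31). All 5 KO values lay under the lowest WT value, and Mrps6 was highest in A7, where only 2 members stood above their mean. The log2 fold change was -0.99 (SE 0.203, adjusted p = 0.0601 by edgeR's quasi-likelihood F-test, Benjamini-Hochberg), short of the threshold. Over all alternatives it lay between -1.14 and -0.58, with adjusted p from 0.0015 to 0.425, and without A12 it was past the threshold (-1.14, adjusted p = 0.0376). The smallest change, -0.58 with adjusted p = 0.425, was that without A7, A8 and A31, the libraries with muscle RNA, where A12 is the only WT library. The log2 fold change of Mrps6 with the muscle covariate was -0.81 (adjusted p = 0.299). Mrps6 lies at chr16:92058270-92112227 on the plus strand (GRCm38), and 98.5% of its counts were on its protein-coding transcript. Its locus also holds Slc5a3, a myo-inositol transporter that shares its first part, so that reads there may be divided. Slc5a3 was at 60.8 ± 25 CPM (SD, n = 3) in WT and 43.8 ± 17.0 CPM (SD, n = 5) in KO, with overlapping groups.

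The 3 higher members were Mrps23, Mrpl37 and Mrpl3. Mrps23, a small subunit protein found in mitochondria of animals, was at 65.8, 91.4 and 70.7 CPM in A7, A8 and A12, and at 121, 93.0, 94.3, 102 and 112 CPM in A24, A25, A26, A29 and A31. The lowest KO library was only just above A8. Its log2 fold change was 0.46 (SE 0.165, adjusted p = 0.192, edgeR's quasi-likelihood F-test, Benjamini-Hochberg). Each of its 5 annotated transcripts had a second entry with equal values in all 8 libraries under an identifier that is not in the annotation used, and the sum of both was taken. With 1 entry of each pair kept the log2 fold change was again 0.46, while its level in CPM depends on this choice.

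Mrpl37, a large subunit protein specific to mitochondria, was at 72.5 CPM (A7), 77.9 (A8) and 64.4 (A12), and at 112, 102, 85.6, 89.2 and 91.1 CPM in A24, A25, A26, A29 and A31. Its log2 fold change was 0.42 (SE 0.149, adjusted p = 0.182, by the same test and adjustment in edgeR). Mrpl3, which encodes uL3m, a protein close to the catalytic centre of the large subunit, was at 56.1, 50.8 and 58.8 CPM in A7, A8 and A12, and at 90.5, 70.9, 71.5, 61.9 and 78.1 CPM in the KO libraries in the same order. Here A8 was the lowest library, unlike in most members. The log2 fold change of Mrpl3 was 0.43 (SE 0.156, adjusted p = 0.192, edgeR). Only 24% of its counts were on protein-coding transcripts, and 62.5% on 1 transcript annotated for nonsense-mediated decay.

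**Figure D3:**
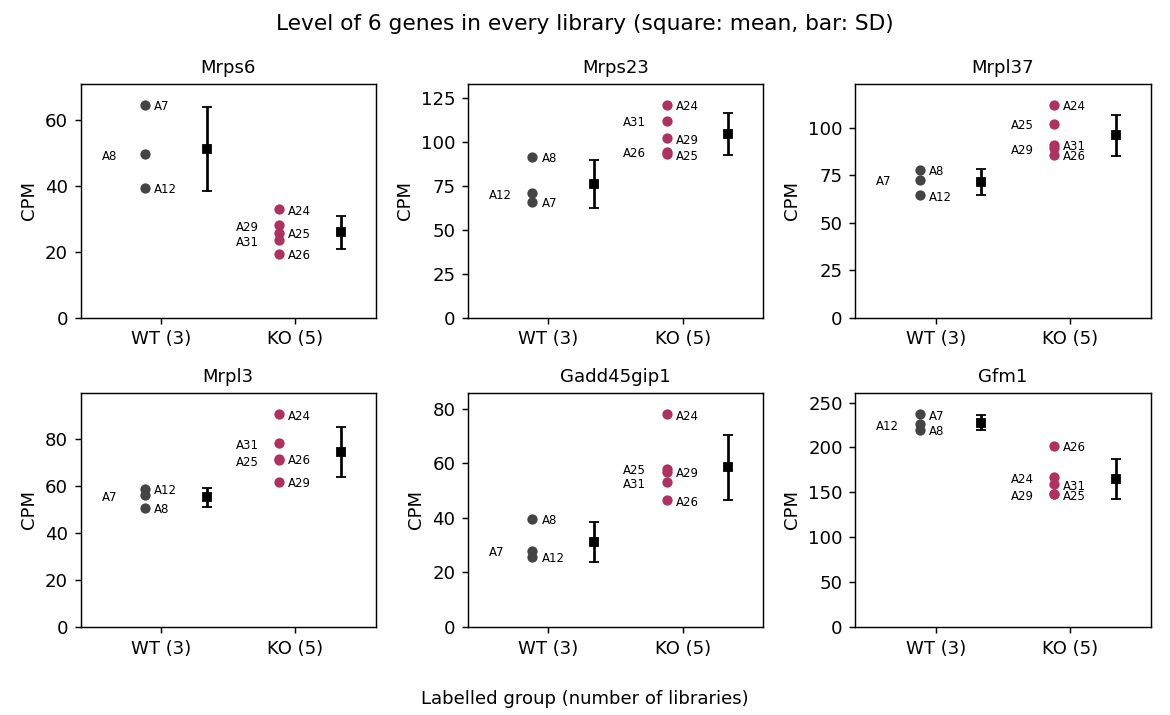
CPM of 6 genes in each library, with the mean (square) and SD (bar) of 3 WT and 5 KO libraries. In Mrps6 and Gfm1 every KO library is below every WT library, and in Mrps23, Mrpl37, Mrpl3 and Gadd45gip1 every KO library is above.

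The other members of lowest p were Mrpl44 and Mrps30. Mrpl44 carries a ribonuclease III-like fold and sits in the large subunit, and Mrps30, named for the small subunit but placed in the large subunit of the mammalian mitoribosome, is also known as a protein linked to programmed cell death. Mrpl44 was at 29.9 ± 4.40 CPM (SD, n = 3) in WT and 40.5 ± 7.73 CPM (SD, n = 5) in KO, and Mrps30 at 36.9 ± 8.47 and 50.6 ± 7.81 CPM. Their log2 fold changes were 0.44 (adjusted p = 0.255) and 0.45 (adjusted p = 0.252, edgeR's quasi-likelihood F-test, Benjamini-Hochberg), and in both the groups overlapped.

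The most positive log2 fold changes were those of Mrps26, Mrpl2, Mrpl14 and Mrpl1, at 0.48 each with SEs of 0.260, 0.218, 0.280 and 0.220. Mrpl2 encodes uL2m, which belongs to the conserved core around the catalytic centre, and Mrpl14 encodes uL14m at the face where the subunits meet. In Mrpl14 the levels were 17.9, 35.2 and 19.8 CPM in A7, A8 and A12 and 50.6, 35.7, 25.7, 28.7 and 29.2 CPM in the KO libraries, so that A8 stood among the KO values. Below Mrps6, the most negative were Mrpl50 and Mrps33, at -0.31 each (SEs 0.198 and 0.236). Mrpl50 was at 95.1 ± 20.5 CPM (SD, n = 3) in WT and 76.6 ± 15.7 CPM (SD, n = 5) in KO.

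Of the members with a listed role, Mrpl44 and Mrps30 are described above. Another 3, linked to control or quality, follow. Mrpl12, which sits in the stalk that recruits translation factors and also binds the mitochondrial RNA polymerase, was at 152 ± 38.4 CPM (SD, n = 3) in WT and 184 ± 37.5 CPM (SD, n = 5) in KO (log2 fold change 0.27, SE 0.219). Mrpl58, a peptidyl-tRNA hydrolase that frees stalled ribosomes, was at 33.7 ± 16.2 and 42.4 ± 6.58 CPM (log2 fold change 0.33, SE 0.265). Mrpl41, linked to growth control outside the ribosome as well, was at 37.0 ± 13.6 and 35.4 ± 5.11 CPM (log2 fold change -0.06, SE 0.221). None of the 3 differed by more than the spread between libraries.

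The next genes are named for the small subunit. Mrps12, which encodes uS12m of the decoding centre, was at 27 ± 4.77 CPM (SD, n = 3) in WT. In KO it was at 34.2 ± 10.1 CPM (SD, n = 5), with a log2 fold change of 0.34 (SE 0.234). Mrps22, in which human mutations cause a disorder of oxidative phosphorylation, was at 37.9 ± 5.67 and 40.2 ± 7.82 CPM (log2 fold change 0.08, SE 0.182). Mrps18a, Mrps18b and Mrps18c are relatives of the same bacterial protein, and their products occupy different sites of the mitoribosome. Their log2 fold changes were 0.19, 0.21 and -0.07 with SEs of 0.208, 0.159 and 0.317, and in each the groups overlapped. Mrps36, a small protein since assigned to the 2-oxoglutarate dehydrogenase complex, was at 177 ± 74.7 and 186 ± 55.1 CPM (log2 fold change 0.07, SE 0.296).

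Levels of different members can be compared only per length. In CPM per kb, averaged over the 8 libraries, the members had a median of 52.0 with quartiles of 34.5 and 71.1, against a median of 3.72 for all genes tested. By name, the large and small subunit medians were 52.6 and 46.3. Every gene named Mrps, Mrps30 and Mrps36 among them, was counted in the small subunit. The highest genes named for the large subunit were Mrpl42 (273 CPM per kb) and Mrpl30 (220 CPM per kb), and the highest named for the small subunit Mrps36 (276 CPM per kb) and Mrps21 (203 CPM per kb). At the low end were Mrpl23 (3.89 CPM per kb) and Mrpl57 (7.92 CPM per kb) among the former and Mrps30 (13.7 CPM per kb) and Mrps16 (20.7 CPM per kb) among the latter. The order of the members was much the same in every library, with Spearman coefficients over the 78 members from 0.89 to 0.98 in the 28 pairs of libraries, which share their transcript lengths.

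The low value of Mrpl23, a protein at the exit of the large subunit's tunnel, cannot be read as low expression. Its processed pseudogene Mrpl23-ps1, 1 of the 5 names left out, was at 23.5 CPM in A7 where Mrpl23 was at 2.03, and took between 87.3% and 92.1% of the counts of the pair in each library. The transcripts share an identical run of 540 bases, from base 151 to base 690 of the 692 bases of the Mrpl23 transcript, so that reads within it cannot be assigned. The sum of both was 31.6 ± 13.7 CPM (SD, n = 3) in WT and 28.1 ± 5.69 CPM (SD, n = 5) in KO.

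The 78 members had 323 transcripts in the tables, and 13 members had only 1. Protein-coding transcripts took between 85.7% and 88.0% of the members' counts in each library. In 8 members they took under 50% of the counts, namely Mrpl3, Mrpl15, Mrpl32, Mrpl51, Mrps5, Mrps14, Mrps24 and Mrps26. In Mrps26, 72.7% of the counts were on a transcript annotated with a retained intron, and the only Mrpl32 transcript in the tables is annotated for nonsense-mediated decay. In Mrps5 the protein-coding share was 50.8% ± 6.88 (SD, n = 3) in WT and 31.9% ± 5.98 (SD, n = 5) in KO, a difference that was not tested and that was seen only after all members had been looked at. These shares come from estimated counts, in which reads that fit several transcripts were divided between them.

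The members lie on 17 chromosomes, with 11 on chromosome 11 and 8 on chromosome 17. Promoters from 250 bases before to 50 bases after the annotated start were matched in RefSeq (GRCm38.p6) for 69 of the 78. Motifs of 3 factors known for nuclear genes of mitochondrial proteins were searched on both strands: GCGCATGCG for NRF1, CCGGAAG for ETS factors such as GABP, and AAGATGGCG for YY1. NRF1's motif was in 7 of the 69 (10.1%), against 1.95% of the 27025 genes with a promoter in RefSeq. The ETS motif was in 26 (37.7%, against 9.93% of all) and the YY1 motif in 8 (11.6%, against 1.64%). In total 36 of the 69 (52.2%) held at least 1 of the motifs, against 12.7% of all. The 27025 genes were not limited to those that passed the filter on low counts, as all members did. The members were not compared with the promoters of expressed genes alone, so these shares do not show a trait particular to them. A match is a run of letters and no evidence of binding.

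The 7 members with the NRF1 motif are shown because the groups did not overlap in the RNA of Nrf1 itself. Each window has 30 bases, 5′ to 3′ on the gene's strand, with the motif or its reverse complement in capitals.
Mrpl9: aggcgcagctGCGCATGCGcggggtccttc
Mrpl10: cccagctccaCGCATGCGCatagcggccct
Mrpl17: ccgagttactGCGCATGCGtcctctgagac
Mrpl22: gcctcggactGCGCATGCGtatagtcagcc
Mrpl32: tttgacccttGCGCATGCGcaagaggggcc
Mrpl39: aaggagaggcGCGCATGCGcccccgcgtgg
Mrps18b: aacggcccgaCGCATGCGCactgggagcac
They lie at chr3:94443298-94443327 (plus) for Mrpl9, chr11:97041437-97041466 (plus) for Mrpl10, chr7:105811079-105811108 (minus) for Mrpl17, chr11:58171621-58171650 (plus) for Mrpl22, chr13:14613105-14613134 (minus) for Mrpl32, chr16:84735350-84735379 (minus) for Mrpl39 and chr17:35916645-35916674 (minus) for Mrps18b. The windows of Mrpl10 and Mrpl22 overlap no annotated exon, that of Mrps18b overlaps an exon of Ppp1r10, and the others overlap an exon of their own gene in GENCODE M21. The log2 fold changes of these 7 members ran from -0.17 to 0.25 with a median of 0.06, and the members matched without the motif had a median of 0.20.

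Among the 4 members whose groups did not overlap, 3 held 1 of the other motifs, and Mrps6 held none of the 3. Of all 69 members matched, 36 (52.2%) held at least 1 of the 3 motifs, and a relation between motif and change was not tested. The ETS motif began 19 bases before the RefSeq start of Mrpl3 and, as its reverse complement, 15 bases after that of Mrps23, and the YY1 motif began 26 bases after that of Mrpl37.
Mrpl3: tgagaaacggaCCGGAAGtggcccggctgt
Mrps23: tgccgcttccgCTTCCGGtaacagcccgag
Mrpl37: tgcacgggcaAAGATGGCGgcgtccaggta
These windows lie at chr9:105053238-105053267 (plus), chr11:88204392-88204421 (plus) and chr4:107066821-107066850 (minus). Each overlaps an exon of its own gene. The median log2 fold change was 0.21 with the ETS motif and 0.15 without it, and 0.23 with the YY1 motif and 0.17 without it.

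Mitoribosomal proteins with other symbols were also measured. Of 5 found in the tables, none was past the threshold and Gadd45gip1 had the lowest p. Gadd45gip1, which encodes the large subunit protein mL64, was at 28.0, 39.6 and 25.7 CPM in A7, A8 and A12, and at 78.0, 58.1, 46.5, 57.0 and 53.0 CPM in A24, A25, A26, A29 and A31. Every KO library was above every WT library, as in 1 of these 5 genes, against 5.37% of all genes. The log2 fold change was 0.91 (SE 0.210, adjusted p = 0.0771, edgeR's quasi-likelihood F-test, Benjamini-Hochberg), with adjusted p from 0.00379 to 0.259 over the alternatives. Aurkaip1, a small subunit protein, was at 85.4 ± 40.7 CPM (SD, n = 3) in WT and 91.0 ± 18.3 CPM (SD, n = 5).

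Of 13 mitochondrial translation factors none was past the threshold. Both elongation factors of the G type were lower in every KO library than in any WT library. Gfm1, which moves the ribosome along the message, was at 237, 220 and 226 CPM in A7, A8 and A12 and at 167, 148, 202, 148 and 159 CPM in the KO libraries (log2 fold change -0.47, SE 0.152, adjusted p = 0.158, edgeR's quasi-likelihood F-test, Benjamini-Hochberg). Gfm2, which splits the subunits after termination, was at 99.8, 78.4 and 92.8 CPM and at 61.4, 68.3, 76.1, 60.3 and 63.5 CPM (log2 fold change -0.45, SE 0.144, adjusted p = 0.145, edgeR). Guf1 and Mtfmt were higher in every KO library (log2 fold changes 0.23 and 0.49). With 2 lower and 2 higher of 13, these stand against 6.09% and 5.37% of all genes. The median of the 13 was 0.07.

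Of the 16 mitochondrial aminoacyl-tRNA synthetases reported here, which load tRNAs with amino acids, none was past the threshold. Sars2, the serine enzyme, whose gene lies head to head with Mrps12 on chromosome 7, was at 16.5 (A7), 14.8 (A8) and 11.8 (A12) CPM, and at 24.4, 24.2, 22.2, 20.1 and 18.4 CPM in the KO libraries in the order above. All KO values were higher than all WT values (log2 fold change 0.61, SE 0.164, adjusted p = 0.106, edgeR's quasi-likelihood F-test, Benjamini-Hochberg). Wars2, the tryptophan enzyme, was at 12.3 ± 1.74 CPM (SD, n = 3) in WT and 8.71 ± 1.36 CPM (SD, n = 5) in KO, again without overlap (log2 fold change -0.49, SE 0.176, adjusted p = 0.191, edgeR). The 16 had a median log2 fold change of 0.06, with 9 above 0 and 7 below. In every KO library 2 of them were higher and 2 lower, against 5.37% and 6.09% of all genes.

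Assembly factors and enzymes that modify the ribosomal RNA came to 27 genes, of which none was past the threshold. Their median log2 fold change was 0.19, with 21 above 0 and 6 below, and 5 were higher and 1 lower in all KO libraries, against 5.37% and 6.09% of all genes. Ngrn, needed for the large subunit's RNA, was at 13.7 ± 1.68 CPM (SD, n = 3) in WT and 22.3 ± 4.15 CPM (SD, n = 5) in KO, with a log2 fold change of 0.70 (SE 0.182, adjusted p = 0.0976, edgeR's quasi-likelihood F-test, Benjamini-Hochberg). Ybey, an RNase of ribosome maturation, was at 4.67 ± 1.69 and 8.0 ± 0.926 CPM (log2 fold change 0.77, SE 0.246, adjusted p = 0.146, edgeR).

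None of the 12 genes of mitochondrial transcription and RNA processing was past the threshold. In every KO library 1 of them was higher and none lower, against 5.37% and 6.09% of all genes. Polrmt, the mitochondrial RNA polymerase, was at 33.0 ± 3.68 CPM (SD, n = 3) in WT and 46.3 ± 5.48 CPM (SD, n = 5) in KO without overlap (log2 fold change 0.49, SE 0.152, adjusted p = 0.138, edgeR's quasi-likelihood F-test, Benjamini-Hochberg). Lrpprc, which stabilises mitochondrial messages, was at 175 ± 20.5 and 141 ± 17.9 CPM with overlap (log2 fold change -0.31, SE 0.156). The 13 protein-coding genes of the mitochondrial genome, the messages that the ribosome translates, had a median log2 fold change of -0.36 with 12 below 0 and none past the threshold. Their summed level was 169573 CPM in A7, 434263 in A8, 288176 in A12, 222699 (A24), 118968 (A25), 256522 (A26), 255876 (A29) and 199727 (A31). The spread within a group was wide, and A25 and A7 were the lowest libraries. The lowest p among these genes was that of mt-Atp8, at 5647 ± 2927 CPM (SD, n = 3) in WT and 1704 ± 804 CPM (SD, n = 5) in KO (log2 fold change -1.73, SE 0.452, adjusted p = 0.0978, edgeR).

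Among 9 regulators of nuclear genes of mitochondrial proteins, none was past the threshold, and the median log2 fold change was 0.07. In 2 of the 9, Nrf1 and Gabpb1, every KO library stood above every WT library, against 5.37% of all genes. Gabpb1 was at 5.93 ± 0.949 CPM (SD, n = 3) in WT and 7.44 ± 0.961 CPM (SD, n = 5) in KO (log2 fold change 0.32, SE 0.186). Nrf1, a transcription factor for many such genes, was at 7.77, 6.48 and 8.21 CPM in A7, A8 and A12 and at 11.6, 15.6, 13.3, 11.2 and 14.6 CPM in A24, A25, A26, A29 and A31. The groups did not overlap, and the log2 fold change was 0.83 (SE 0.173, adjusted p = 0.0624, edgeR's quasi-likelihood F-test, Benjamini-Hochberg), with adjusted p from 0.000608 to 0.396 over the alternatives. A8, where 72 members stood above their mean on the TMM scale, had the lowest Nrf1 level. A relation between Nrf1 and the mitoribosomal genes was not tested. Pprc1, a coactivator related to PGC-1, was at 10.3 ± 2.48 CPM (SD, n = 3) in WT and 13.7 ± 2.25 CPM (SD, n = 5) in KO, with overlapping groups.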

How the data were processed

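RNA from BAT of 8 mice was sequenced, and the authors deposited estimated counts per transcript (expected counts), not normalized, on GRCm38. Reads that fit several transcripts had been divided between them before deposition. The study's methods name CLC Genomics Workbench for mapping, and the program that wrote the counts and its use of strand are not given in the sources used here, so that overlapping and antisense genes cannot be fully separated.

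Values were summed by gene symbol, rounded, filtered with filterByExpr, scaled by TMM and tested by glmQLFTest in edgeR 4.0.16 (R 4.3.3), with Benjamini-Hochberg adjustment over 14851 genes. An SE is the absolute log2 fold change over the square root of F. DESeq2 1.42.0 and limma 3.58.1 gave alternatives. Log2 CPM used a prior count of 2. Lengths and transcript types came from GENCODE M21. Of 1406 transcript rows whose identifier is not in this annotation, 1073 had a count, and 588 of those, in 131 genes, equalled an annotated row of the same gene in all 8 libraries. Whether such values are a read count divided between copies or one written a second time could not be told from the tables. Both rows were summed, and the unannotated one was given the length and type of the annotated one. Among the members this applies to Mrps23 alone.

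The fit was tested on simulated data. Libraries are separate mice per the labels. Totals from 17558090 to 67498055 counts set the precision. Named genes are the members past the threshold, the 6 of lowest p, the 3 highest and 3 lowest log2 fold changes, the 2 highest and 2 lowest levels per kb in each subunit and members with a listed role, and in other lists the genes past the threshold and the 2 of lowest p. Slc5a3, Mrps5, Mrpl23-ps1, Guf1, Mtfmt and Gabpb1 were chosen after their values were seen. The members and lists were chosen with earlier results of these data known. Planned protein comparisons were not made, as no protein table was used here. The result for 1 gene of the other lists is not reported here.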

Additional observations from a re-analysis of the deposited data

Results flagged for a closer look

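In 6 of 46 values tested in the KO group, 1 of the 5 libraries lay far from the other 4, with a gap to its neighbour above 0.71 of the whole range. Chance flags about 1 in 20 groups. In 5 of them the library was A24, 1 of the 2 shallowest, which was the highest KO library at 4.81 CPM for Mrpl23, 53.8 CPM for Mrpl44, 103 CPM for Mrpl50, 80.7 CPM for Mrps16 and 41.2 CPM for Mrps18c. A24 was also the library in which all 78 members stood above their own mean, so these values are not independent of each other. In the remaining one, Ybey was at 9.59 CPM in A25. The part of depth in these values was not tested.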

How the results depend on the processing

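The median log2 fold change of the members was above 0 under every alternative run, from 0.05 to 0.46 (large subunit 0.03 to 0.48, small subunit 0.05 to 0.45). Their mean log2 CPM differed between groups by 0.18 with either prior count. The number of members past the threshold was 0, and 1 (Mrps6) with DESeq2's Wald test, the likelihood ratio test, no filter, a minimum of 10 counts per library and the length trend removed. It was 6 at an unadjusted p below 0.05 and 0 with the adjusted p alone. With libraries left out singly it ran from 0 to 1 (1 without A12). The number whose groups did not overlap was 4, against 29 with total counts only, 2 with the dominant transcript (of all genes, 4.34% higher and 5.68% lower), 10 without A24 and A25 (11.2% and 9.95%), and 62 without A7, A8 and A31 (26.2% and 26.8%), and ran from 4 to 50 (without A8) with libraries left out singly. It was not counted with the muscle covariate. The settings without A7, A8 and A31 and with 1 entry of each equal pair were chosen after seeing the data, and in the former the lone WT library is assumed to vary like the others.

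For 45 single genes, 1034 values were computed, of which 954 kept their direction and side of the threshold, 34 passed it and 46 changed sign, in 11 genes. With total counts only, the sign changed for Mrpl30 (0.19), Mrpl41 (0.21), Mrpl42 (0.11) and Mrps18c (0.22), and with voom for Mrpl30 (0.03), Mrpl41 (0.10), Mrpl42 (0.01) and Mrps18c (0.06). It changed with the dominant transcript for Mrpl23 (-0.30), Mrpl30 (0.02) and Mrps21 (-0.01), with the muscle covariate for Mrpl30 (0.03), Mrpl41 (0.17) and Mrpl42 (0.03), with the GC trend removed for Mrps18c (0.03) and Aurkaip1 (-0.10) and with the length trend removed for Mrps36 (-0.01). Without A24 and A25 it changed for Aurkaip1 (-0.12), Mrpl23 (-0.10), Mrps22 (-0.00) and Mrps36 (-0.18). Without A7, A8 and A31 it changed for Mrpl30 (0.18), Mrpl41 (0.33), Mrpl42 (0.25), Mrps18c (0.06) and Rpl3l (0.74). With libraries left out singly the log2 fold change ran from -0.10 to 0.56 for Aurkaip1, -0.05 to 0.64 for Mrpl23, -0.22 to 0.21 for Mrpl30, -0.23 to 0.28 for Mrpl41, -0.33 to 0.22 for Mrpl42, -0.37 to 0.38 for Mrps18c, -0.10 to 0.56 for Mrps21, -0.04 to 0.22 for Mrps22, -0.53 to 0.02 for Mrps33 and -0.14 to 0.47 for Mrps36. The cause of these changes was not tested. Depth limits A24 and A25 most.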

Other observations

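Markers of the other cells in the tissue were read in the same libraries. None of the 7 endothelial, 6 macrophage, 5 mural, 5 fibroblast and preadipocyte, 4 Schwann and 5 erythroid cell markers was past the threshold, nor was any of the 4 lymphocyte markers tested. Of the 14 skeletal muscle markers 1 was past it, Myh7, at 23.3 CPM in WT and 0.0782 CPM in KO on average (log2 fold change -7.86, adjusted p = 0.0474, edgeR's quasi-likelihood F-test, Benjamini-Hochberg). Its WT level lay in the libraries with muscle RNA, at 60.7 CPM (A7), 9.29 (A8) and 0.0259 (A12), and the groups overlapped. The macrophage markers summed to 76.8 CPM in A7, 31 in A8, 110 in A12, 98.7 (A24), 66.8 (A25), 63.7 (A26), 51.6 (A29) and 55.9 (A31). The fibroblast markers summed to 201 CPM (A7), 90.0 (A8), 243 (A12), 180 (A24), 165 (A25), 87.4 (A26), 136 (A29) and 147 (A31). The endothelial markers were lowest in A24 and A8, the libraries highest in mitoribosomal genes on the TMM scale, with sums of 550 CPM (A7), 440 (A8), 599 (A12), 385 (A24), 585 (A25), 679 (A26), 668 (A29) and 618 (A31). The 12 brown adipocyte markers summed to 15805 CPM (A7), 32063 (A8), 23163 (A12), 27286 (A24), 14930 (A25), 20285 (A26), 20028 (A29) and 24465 (A31). The part of these cells in the members' levels was not tested.

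Among cytosolic ribosomal proteins none was past the threshold. Of the 84 tested, 2 were lower and none higher in every KO library, against 6.09% and 5.37% of all genes. Rpl5, which carries the 5S RNA, was at 12 ± 2.57 CPM (SD, n = 3) in WT and 6.36 ± 1.26 CPM (SD, n = 5) in KO without overlap (log2 fold change -0.91, SE 0.211, adjusted p = 0.0772, edgeR). Rpl3l, a form of the protein found in muscle, was at 8.76 CPM (A7), 9.39 (A8) and 0.209 (A12), and at 0.677, 0.142, 0.326, 0.303 and 1.23 CPM in A24, A25, A26, A29 and A31, with overlapping groups (log2 fold change -3.47, SE 0.907, adjusted p = 0.0976, edgeR). Among the genes listed as oxidative phosphorylation subunits none was past the threshold, and the 2 of lowest p were Atp5s (log2 fold change -1.14, SE 0.257) and Cox6b2 (log2 fold change 1.76, SE 0.521), both at under 10 CPM. This list was drawn by symbol pattern, so that it may hold genes that are not subunits and miss some that are.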
